A study of Mus musculus with 4 samples.

Results

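The genes described here encode the constitutive proteasome, the protease that degrades ubiquitin-tagged proteins. They were chosen by symbol, as every gene whose annotated symbol is Psma, Psmb, Psmc or Psmd followed by a number, with the inducible immunoproteasome genes Psmb8, Psmb9 and Psmb10 left out. This gave 36 genes of the 18193 with a probe set of their own, measured by 74 of 45037 probe sets. The genes fell into 16 of the core particle, 17 of the regulatory particle and 3 chaperones that help to assemble the regulatory particle (Psmd5, Psmd9 and Psmd10). The rule itself uses no measured value, but it was set with earlier results of these data known.

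All cells were mouse embryonic fibroblasts (MEFs) carrying oncogenic HRASG12V from the retroviral vector pBabe-HRASG12V-Hygro, and 1 Affymetrix array was run for each of 4 groups. The groups were p65-/- cells recovered from a tumour, p65-/- cells before injection, p65+/+ cells recovered from a tumour and p65+/+ cells before injection. p65 is the NF-kB subunit encoded by Rela. Tumours had been raised in SCID mice, which lack mature B and T cells, then dissociated with collagenase and returned to culture, with 2 weeks of hygromycin selection. Each genotype was 1 line, so genotype and line cannot be told apart, and the sources used here do not give the numbers of tumours and mice. The groups had no replicate arrays, so no p-value is given and every difference below describes a pair of arrays. In cultures of this kind, fewer cells of a type and less RNA per cell cannot be told apart.

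The proteasome is a barrel, the core particle, capped by regulatory particles. The outer alpha rings of the core form its gate, and the inner beta rings hold the protease sites. In the regulatory particle, a ring of ATPases unfolds substrates, the other base subunits bind ubiquitin, and the lid removes ubiquitin chains. The proteasome also takes part in NF-kB signalling, where it destroys the IkB inhibitors and so frees p65 to enter the nucleus.

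The deposited signals were linear intensities, with 1 value per probe set and array. The median signal of an array, used here as the floor below which a gene was not counted as measured, was 92.7 in p65-/- tumour and 87.8 in p65-/- pre-injection cells, against 92.5 in p65+/+ tumour and 93.4 in p65+/+ pre-injection cells. The p65-/- pre-injection array stood apart, with 11153 probe sets at a signal of 200 or more, against 13015 to 13419 on the other arrays. Its gene levels correlated at Pearson's r of 0.77 to 0.86 with the other arrays, over 12829 genes, while the p65+/+ arrays correlated at 0.97 with each other. Rela, the deleted gene, had a signal of 209 in p65-/- tumour and 214 in p65-/- pre-injection cells, against 1457 in p65+/+ tumour and 1479 in p65+/+ pre-injection cells (6.96-fold lower in p65-/- tumour cells and 6.91-fold lower in p65-/- cells before injection), which is the direction the labels give. Most fibroblast markers were measured, since 9 of 10 fibroblast markers reached the floor on both p65-/- arrays and 10 of 10 on both p65+/+ arrays, with Dcn, a matrix proteoglycan, under the floor in p65-/- cells. Some of these markers differed between the lines. Before injection 3 of the 10 were 2-fold or more lower in p65-/- cells and 0 higher (18.1% and 2.11% of all genes). These were Dcn (at least 76.0-fold), Thy1, a fibroblast surface protein (12.7-fold), and Pdgfra, a growth factor receptor (3.42-fold). In tumour cells 4 were 2-fold or more lower in p65-/- cells (5.62% of all genes). Col1a1 (2.91-fold) and Fn1 (2.37-fold) were the 2 that were 2-fold or more higher (2.74%). In p65-/- cells Thy1 was 4.61-fold and Col1a1 2.48-fold higher in tumour than pre-injection cells. The summed signal of the 10 markers was 48799 in p65-/- tumour and 42553 in p65-/- pre-injection cells, against 46995 in p65+/+ tumour and 50909 in p65+/+ pre-injection cells. Of 7 macrophage markers, 2 reached the floor on every array, with sums between 751 and 1294. Of the leukocyte, macrophage, endothelial and epithelial markers, Ptprc, Adgre1, Cd68, Cdh5 and Epcam were under the floor on all 4 arrays. Csf1r (198 to 243), Cd14 (220 to 809) and Cd3e (454 to 671) were above it on all 4. Pecam1, Krt5 and Krt8 reached it on the p65-/- arrays alone, with signals of 93.8 to 105.7 there. Krt18 reached it in p65-/- tumour cells alone, at 127 against 30.7 to 39.3 on the other arrays. Of 5 epithelial markers, 3 reached the floor in p65-/- tumour and 2 in p65-/- pre-injection cells, against 0 in p65+/+ tumour and 0 in p65+/+ pre-injection cells, with sums between 301 and 415. Of 5 endothelial markers, 1 reached it on each p65-/- array and 0 on each p65+/+ array, with sums between 258 and 297, and 1 of 4 lymphocyte and granulocyte markers did on every array, with sums between 624 and 857. The part of such cells, and of the array that stood apart, in the differences below was not tested.

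Nearly the whole constitutive proteasome was measured in these fibroblasts. On every array 34 of the 36 genes reached the floor, and their signals ran between 269.5 and 4912. The exceptions were Psma8, the testis-specific alpha subunit, with signals of 24.3 to 28.8, and Psmb11, the catalytic beta subunit of thymic cortical epithelium, with 50.7 to 57.7. The median signal of the 34 genes was 2099 in p65-/- tumour and 1464 in p65-/- pre-injection cells, against 2061 in p65+/+ tumour and 1966 in p65+/+ pre-injection cells. The p65-/- pre-injection array held the lowest of the 4 signals for 20 of the 34 genes (58.8%) and for 38.1% of all 12829 genes. It held the highest signal for 9 of the 34 (26.5%), against 35.6% of all genes.

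**Figure D1:**
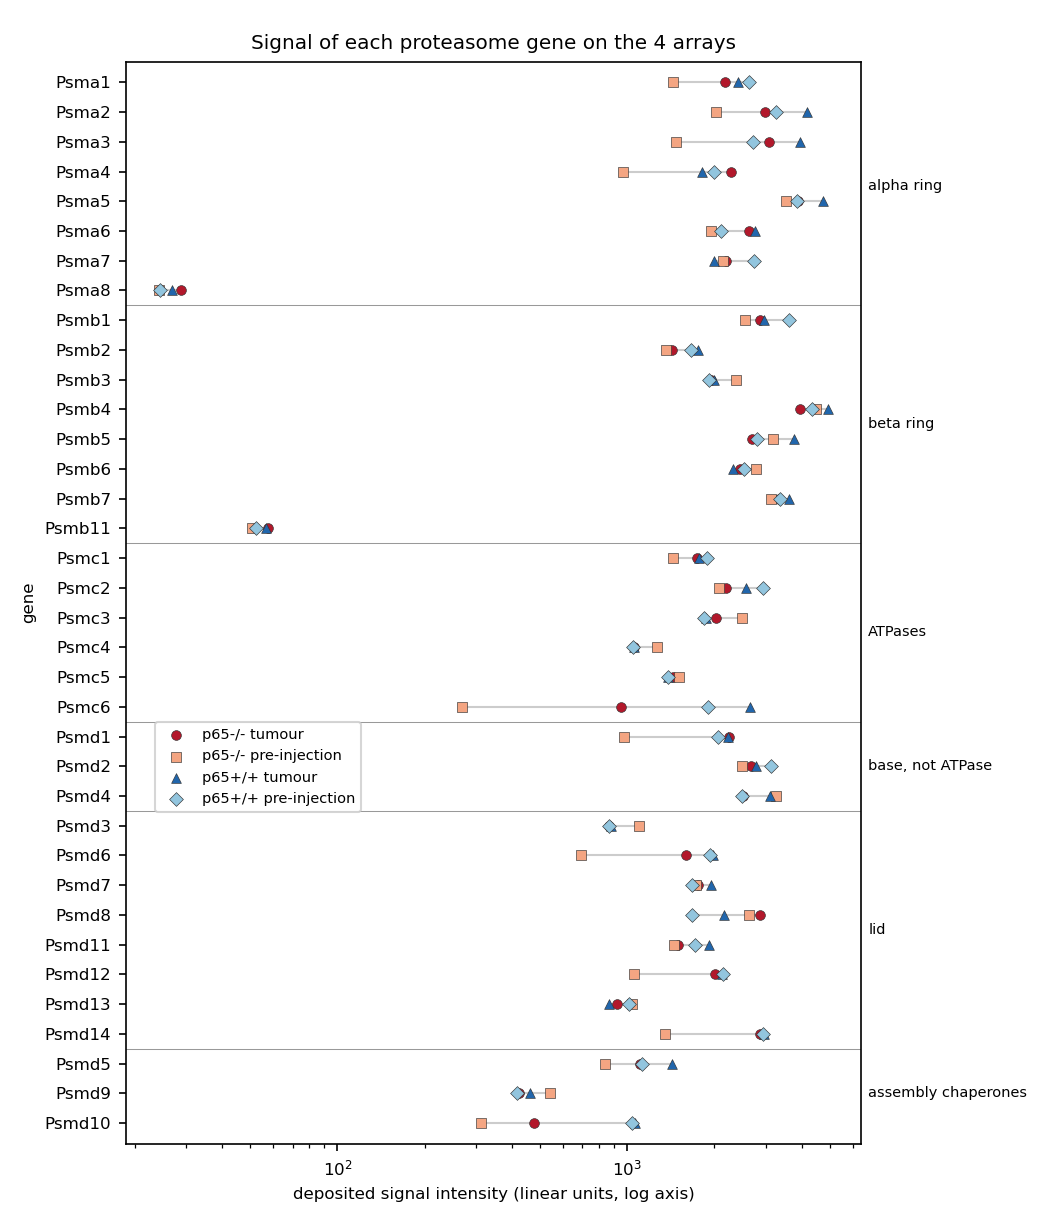
Deposited signal (log axis) of each of the 36 proteasome genes on the 4 arrays, 1 gene per line and 1 symbol per array, grouped by role. The p65-/- pre-injection symbol of Psmc6 lies far left of the others at 269.5, both p65-/- symbols of Psmd10 lie left of both p65+/+ symbols, and Psma8 and Psmb11 lie between 24.3 and 57.7 on every array.

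The gene that differed most was Psmc6, an ATPase of the regulatory particle base that helps to unfold substrates. It lies at chr14:45329823-45349074 (GRCm38). Its signal was 950.4 in p65-/- tumour and 269.5 in p65-/- pre-injection cells, against 2645 in p65+/+ tumour and 1897 in p65+/+ pre-injection cells. Both p65-/- arrays were below both p65+/+ arrays, by 7.04-fold before injection and 2.78-fold in tumour cells. Within each genotype the tumour cells had more, 3.53-fold in p65-/- and 1.39-fold in p65+/+ cells. The other probe sets of Psmc6 were dimmer and gave the same order of arrays. A probe set of a kind that can cross-hybridise had a signal of 122 in p65-/- tumour and 41.2 in p65-/- pre-injection cells, against 657 in p65+/+ tumour and 405 in p65+/+ pre-injection cells. The last had 43.2 in p65-/- tumour and 13.7 in p65-/- pre-injection cells, against 216 in p65+/+ tumour and 144 in p65+/+ pre-injection cells, where both p65-/- signals were under the floor. With the mean log2 signal of its 3 probe sets, which was under the floor in p65-/- pre-injection cells, the log2 tumour change of p65-/- cells was at least 0.96 (1.68 with no floor), against 1.82 for the main probe set. The genotype difference in tumour cells was then -2.07, against -1.48.

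Psmd10, also called gankyrin, is an assembly chaperone of the regulatory particle and an oncoprotein that binds RB1 and MDM2. It lies at chrX:140948425-140956711 (GRCm38). Its single compared probe set had a signal of 476 in p65-/- tumour and 312 in p65-/- pre-injection cells, against 1066 in p65+/+ tumour and 1039 in p65+/+ pre-injection cells. It was 3.33-fold lower in p65-/- than in p65+/+ cells before injection and 2.24-fold lower in tumour cells. Tumour cells had 1.53-fold more than pre-injection cells in the p65-/- line and 1.03-fold more in the p65+/+ line.

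Psmc6 and Psmd10 were the only genes of the 34 below p65+/+ cells by 2-fold or more both before injection and after tumour growth, and this held for both of them under each of 9 alternative settings of scaling, floor, probe set and source. The floor settings and the choice of the brightest probe set of any suffix could not change either gene. The mean of all probe sets could not change Psmd10, which has a single one. The promoters of these genes are shown with that of Psmd8, the gene with the largest excess in p65-/- cells, and that of Psmb5, a catalytic subunit, so that the sequence upstream of genes that went different ways can be read. All are from RefSeq (GRCm38.p6), 5′ to 3′ on the strand of the gene, and hold the bases just before the transcription start that the RefSeq table uses. Capitals mark a match, on either strand, to the antioxidant response element core TGACNNNGC, which NFE2L1 and NFE2L2 bind in proteasome genes, or to the CCAAT box, letters CCAAT, which NF-Y binds. No marked matches overlap.
Psmc6 (chr14:45329574-45329823, plus strand): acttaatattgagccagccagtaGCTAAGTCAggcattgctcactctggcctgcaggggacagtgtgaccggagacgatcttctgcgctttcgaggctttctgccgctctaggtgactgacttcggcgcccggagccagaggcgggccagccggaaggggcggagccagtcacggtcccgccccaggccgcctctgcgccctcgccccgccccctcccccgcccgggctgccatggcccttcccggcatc
Psmd10 (chrX:140956712-140956861, minus strand): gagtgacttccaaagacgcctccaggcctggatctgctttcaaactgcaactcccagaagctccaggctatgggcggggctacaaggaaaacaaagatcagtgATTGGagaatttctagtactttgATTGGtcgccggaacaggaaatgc
Psmd8 (chr7:29180674-29180823, minus strand): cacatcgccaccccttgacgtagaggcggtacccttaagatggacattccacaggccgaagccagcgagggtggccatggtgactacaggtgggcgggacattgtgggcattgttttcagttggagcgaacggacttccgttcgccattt
Psmb5 (chr14:54617996-54618145, minus strand): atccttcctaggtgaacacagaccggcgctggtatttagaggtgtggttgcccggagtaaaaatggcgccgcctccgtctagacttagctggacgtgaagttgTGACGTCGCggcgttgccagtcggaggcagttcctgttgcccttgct
The Psmc6 stretch holds 1 antioxidant response element core and no CCAAT box, the Psmd10 stretch holds 2 CCAAT boxes, the Psmd8 stretch holds neither motif, and the Psmb5 stretch holds 1 antioxidant response element core. The stretches are not of equal length, since that of Psmc6 has 250 bases and the others 150. The Psmc6 match begins at -227 from the start, which a stretch of 150 bases would not reach. Psmd10 has a further CCAAT box at -230, outside its stretch.

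Promoters of 29 of the 36 genes were found in the RefSeq table, as windows of 250 bases before to 50 bases after the start. The antioxidant response element core stood in 5 of the 29 (17.2%; Psmb5, Psmb6, Psmc6, Psmd9 and Psmd12), against 12.4% of all 32851 promoters. A CCAAT box stood in 12 of the 29 (41.4%), against 37.4% of all promoters, and these were 7 of 12 core particle genes and 4 of 14 regulatory particle genes, with Psmd10 as the remaining one. A match to the NF-kB site, searched by name on both strands, stood in 5 of the 29 (17.2%; Psma6, Psma7, Psmd11, Psmd12 and Psmd13), against 8.46% of all promoters. The 29 genes had 31 promoters, and the shares of all promoters are counted by promoter and not by gene. Counted by promoter, the 3 motifs in turn stood in 5, 12 and 5 of the 31. A match is a run of letters and not a shown binding site. Of the genes with an NF-kB match, Psmd12 was 2.03-fold lower in p65-/- cells before injection, and Psma6, Psma7, Psmd11 and Psmd13 had log2 differences of -0.12, -0.35, -0.23 and 0.029.

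The genotype difference before injection was the widest among these genes. Of the 34 genes, 7 were 2-fold or more lower in p65-/- than in p65+/+ cells (20.6%) and 0 were 2-fold or more higher. Among all 12597 genes compared, 18.1% were 2-fold or more lower and 2.11% were 2-fold or more higher, so the share of proteasome genes was near the background. Among the 3505 genes in the same range of signal, 28.9% were 2-fold or more lower. The median log2 difference was -0.26 for the 34 genes and -0.02 for all genes, with a range of -2.82 (Psmc6) to 0.64 (Psmd8); the sign of the median of the 34 turned under 3 scalings, to 0.073 after quantile normalization, 0.11 after scaling to the 75th percentile and 0.044 after cyclic loess. Under each of these 3 scalings, 3 genes were 2-fold or more lower, and Psmc6, Psmd10 and Psmd6 were those 3. When p65-/- tumour cells were set against p65+/+ pre-injection cells, 1 gene was 2-fold or more lower. At 1.5-fold, 10 genes were lower (29.4%, against 26.5% of all genes) and 1 was higher (2.94%, against 7.49%), but 7 were higher after quantile normalization, scaling to the 75th percentile or cyclic loess. Across probe sets of the same gene, this difference had a standard deviation of 0.48 over 5541 genes and 0.40 over 17 of the proteasome genes, and 15 of those 17 had the same sign on all their compared probe sets. That spread is between probes on the same pair of arrays and says nothing of the spread between cultures.

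Between the tumour cells the genotypes were closer. The 2 genes lower by 2-fold or more were Psmc6 and Psmd10 (5.88%, against 5.62% of all 11988 genes), and 0 of 34 were higher (2.74% of all genes). The same 2 were the ones past 1.5-fold, where 12.9% of all genes were lower and 7.41% higher. The median log2 difference was -0.10 (0.025 after quantile normalization), against 0.01 for all genes, and 26 of 34 genes were below 0 (76.5%, against 48.6% of all genes). Of the 34 genes, 23 had the same sign of genotype difference in both states (67.6%, which is also the share of all 11756 genes), and the states are pairs of arrays with none in common. Pearson's r between the states was 0.63 and Spearman's rho 0.34 across these 34 genes, which share the arrays and are not independent. Without Psmc6 the values were 0.41 and 0.28, and across all 11756 genes both were 0.47.

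**Figure D2:**
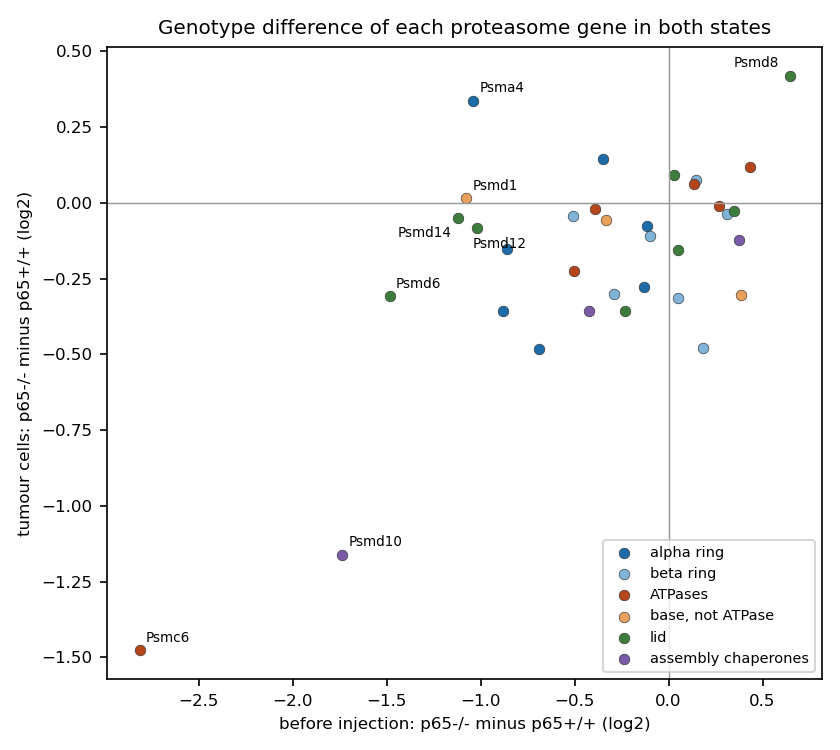
Log2 difference of p65-/- minus p65+/+ cells for each of the 34 genes, before injection (horizontal axis) and in tumour cells (vertical axis), with 1 point per gene and colours for roles. Psmc6 and Psmd10 lie far to the lower left, Psma4, Psmd1, Psmd6, Psmd12 and Psmd14 are low on the horizontal axis alone, and Psmd8 is at the upper right.

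Of the 7 measured alpha ring genes, 4 were 1.5-fold or more lower in p65-/- cells before injection (Psma1, Psma2, Psma3 and Psma4), as 26.5% of all genes were, and Psma5, Psma6 and Psma7 were within 1.5-fold. Under the 4 scalings, the least negative log2 differences of Psma1, Psma2 and Psma3 were -0.49, -0.32 and -0.51, short of 1.5-fold. That of Psma4 was -0.62, still past it. All 7 had a log2 difference below 0, as 52.2% of all genes did, with a median of -0.69 and the highest at -0.12 (Psma6); the number below 0 was 5 after quantile normalization or cyclic loess, 4 after scaling to the 75th percentile and 7 after scaling to the median, and the ring's median stayed below 0 under these 4 scalings (-0.60 to -0.32). Psma4, whose yeast counterpart carries the tail that closes the gate, had a signal of 2286 in p65-/- tumour and 970.3 in p65-/- pre-injection cells, against 1809 in p65+/+ tumour and 1997 in p65+/+ pre-injection cells. Its p65-/- pre-injection signal was the lowest of the 4, 2.06-fold below p65+/+ cells, and in tumour cells it was 1.26-fold higher in p65-/- cells. Psma4 lies at chr9:54950781-54958034 (GRCm38). Psma3, another gate-ring subunit, had a signal of 3076 in p65-/- tumour and 1475 in p65-/- pre-injection cells, against 3940.2 in p65+/+ tumour and 2721 in p65+/+ pre-injection cells. Tumour cells had more of it in both genotypes, 2.09-fold in p65-/- and 1.45-fold in p65+/+ cells. Its second probe set, with signals of 129 to 150, was nearly flat, at log2 differences of 0.11 for the p65-/- tumour change and -0.06 for the genotype difference before injection.

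Psma1 had a signal of 2171 in p65-/- tumour and 1444 in p65-/- pre-injection cells, against 2412 in p65+/+ tumour and 2624 in p65+/+ pre-injection cells. Psma2 had a signal of 2983 in p65-/- tumour and 2018 in p65-/- pre-injection cells, against 4169 in p65+/+ tumour and 3252 in p65+/+ pre-injection cells. Both were lowest on the p65-/- pre-injection array, 1.82-fold and 1.61-fold below p65+/+ cells. Psma5 and Psma6 differed less, with log2 genotype differences before injection of -0.13 and -0.12. Psma7 was the exception to the order of arrays, with a signal of 2199 in p65-/- tumour and 2148 in p65-/- pre-injection cells, against 1988 in p65+/+ tumour and 2739 in p65+/+ pre-injection cells, so that its highest value was in p65+/+ pre-injection and its lowest in p65+/+ tumour cells. Its second probe set followed it closely, at 2214 in p65-/- tumour and 2044 in p65-/- pre-injection cells, against 2045 in p65+/+ tumour and 2685 in p65+/+ pre-injection cells. The p65-/- pre-injection array held the lowest signal for 6 of the 7 alpha genes.

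The beta ring genes were not lower as a group. Their median log2 genotype difference before injection was 0.05 (0.14 to 0.42 under the 4 scalings), with 3 of 7 below 0, none past 1.5-fold and a range of -0.51 (Psmb1) to 0.31 (Psmb3). Under 3 of 9 alternative settings Psmb3 was 1.5-fold or more higher in p65-/- cells. The alpha median minus the beta median was -0.74, and it lay between -0.74 and -0.45 under 9 alternative settings. When p65-/- tumour cells were set against p65+/+ pre-injection cells it was 0.07, and in the tumour comparison it was -0.04. No test of the gap between the rings was possible with these arrays.

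Psmb5, the chymotrypsin-like protease subunit that proteasome inhibitor drugs target, lies at chr14:54614120-54617995 (GRCm38) and had a signal of 2701 in p65-/- tumour and 3187 in p65-/- pre-injection cells, against 3763 in p65+/+ tumour and 2803 in p65+/+ pre-injection cells. Its highest signal was in p65+/+ tumour cells, and its genotype difference was higher by 1.14-fold before injection and lower by 1.39-fold in tumour cells. Psmb6, the caspase-like subunit, had a signal of 2448 in p65-/- tumour and 2792 in p65-/- pre-injection cells, against 2322 in p65+/+ tumour and 2528 in p65+/+ pre-injection cells. Psmb7, the trypsin-like subunit, had a signal of 3345 in p65-/- tumour and 3139.7 in p65-/- pre-injection cells, against 3607 in p65+/+ tumour and 3369 in p65+/+ pre-injection cells. The 4 values of each of these subunits lay within 1.5-fold of each other, since Psmb5 spanned 2701 to 3763, Psmb6 2322 to 2792 and Psmb7 3140 to 3607.

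The remaining beta subunits Psmb1, Psmb2, Psmb3 and Psmb4 are structural and have no protease site. Psmb1 had a signal of 2867 in p65-/- tumour and 2549.6 in p65-/- pre-injection cells, against 2956 in p65+/+ tumour and 3626 in p65+/+ pre-injection cells, and was 1.42-fold lower in p65-/- cells before injection. A dim Psmb1 probe set of a kind that can cross-hybridise gave a larger log2 difference of -0.93. Psmb2, Psmb3 and Psmb4 had log2 genotype differences before injection of -0.29, 0.31 and 0.051, and in tumour cells of -0.30, -0.035 and -0.31. The second probe set of Psmb3 had signals of 1677 in p65-/- tumour and 2041 in p65-/- pre-injection cells, against 1862 in p65+/+ tumour and 1693 in p65+/+ pre-injection cells, again highest on the p65-/- pre-injection array.

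**Figure D3:**
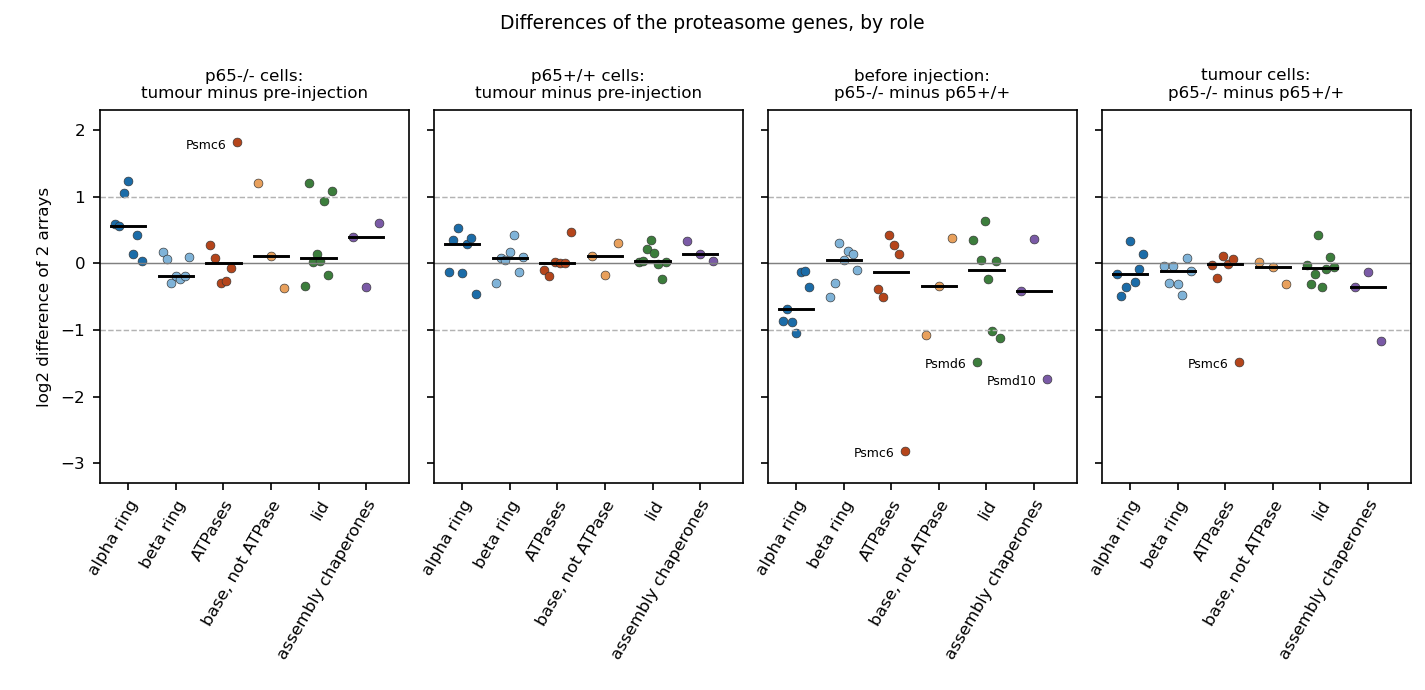
Log2 difference of each of the 34 genes in the 4 comparisons of pairs of arrays, by role, with 1 point per gene, bars at the group medians and dashed lines at 2-fold. The alpha ring sits above 0 as deposited in the p65-/- tumour difference (median 0.56; 5 or 6 of 7 genes above 0 under the 4 scalings) and below 0 in the genotype difference before injection (median -0.69; 4 to 7 of 7 genes below 0 under the 4 scalings), and the beta ring medians lie between -0.19 and 0.08.

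Psmc6 was the only ATPase past 1.5-fold in the signals as deposited. Before injection, Psmc3 and Psmc4 were each 1.5-fold or more higher in p65-/- cells under 3 of 9 alternative settings. The other 5, Psmc1 to Psmc5, had log2 genotype differences before injection between -0.50 (Psmc2) and 0.43 (Psmc3). Psmc3, another ATPase of the ring, had a signal of 2028 in p65-/- tumour and 2493 in p65-/- pre-injection cells, against 1869 in p65+/+ tumour and 1846 in p65+/+ pre-injection cells, with the highest value on the p65-/- pre-injection array. Psmc2, by contrast, had a signal of 2196 in p65-/- tumour and 2070.5 in p65-/- pre-injection cells, against 2565 in p65+/+ tumour and 2936 in p65+/+ pre-injection cells, with the lowest value on that array. Psmc1, Psmc4 and Psmc5 had log2 genotype differences in tumour cells of -0.021, -0.0089 and 0.061. The 6 ATPases together had a median log2 difference of -0.13 before injection and 0.01 for the p65-/- tumour change.

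In the base outside the ATPase ring, Psmd1, a large scaffold subunit, lies at chr1:86064619-86139295 (GRCm38) and had a signal of 2243 in p65-/- tumour and 972 in p65-/- pre-injection cells, against 2219.8 in p65+/+ tumour and 2050.3 in p65+/+ pre-injection cells. Its p65-/- pre-injection value was 2.11-fold below p65+/+ cells, and the tumour cells of both genotypes had nearly the same value. Psmd2, the scaffold that binds ubiquitin-like shuttle proteins, had log2 differences of -0.33 before injection and -0.056 in tumour cells. Psmd4, a ubiquitin receptor, went the other way, with a signal of 2514 in p65-/- tumour and 3263 in p65-/- pre-injection cells, against 3103 in p65+/+ tumour and 2497 in p65+/+ pre-injection cells. Its genotype difference was 1.31-fold higher in p65-/- cells before injection and 1.23-fold lower in tumour cells. The 3 probe sets of Psmd4 gave log2 differences before injection of 0.39, 0.41 and 0.35.

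The lid held both ends of the range outside Psmc6 and Psmd10. Psmd6, a lid scaffold subunit, lies at chr14:14112185-14120945 (GRCm38) and had a signal of 1595 in p65-/- tumour and 691 in p65-/- pre-injection cells, against 1974 in p65+/+ tumour and 1934 in p65+/+ pre-injection cells. It was 2.8-fold lower in p65-/- cells before injection, and its second probe set was also lowest on that array, with signals of 1138 in p65-/- tumour and 638 in p65-/- pre-injection cells, against 1439 in p65+/+ tumour and 1470.1 in p65+/+ pre-injection cells. Psmd14, the deubiquitinase that removes ubiquitin chains from substrates, lies at chr2:61711694-61800376 (GRCm38) and had a signal of 2864 in p65-/- tumour and 1350.0 in p65-/- pre-injection cells, against 2967 in p65+/+ tumour and 2935 in p65+/+ pre-injection cells. It was 2.17-fold lower in p65-/- cells before injection and within 1.5-fold in tumour cells. Psmd12, another lid scaffold subunit, had a signal of 2010.2 in p65-/- tumour and 1053 in p65-/- pre-injection cells, against 2127 in p65+/+ tumour and 2134 in p65+/+ pre-injection cells and was 2.03-fold lower before injection. It lies at chr11:107479528-107498036 (GRCm38).

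Psmd8, a lid subunit whose incorporation completes lid assembly in yeast, was the gene with the largest excess in p65-/- cells, with a signal of 2879.5 in p65-/- tumour and 2621 in p65-/- pre-injection cells, against 2152 in p65+/+ tumour and 1678 in p65+/+ pre-injection cells. Both p65-/- values were above both p65+/+ values, by 1.56-fold before injection and 1.34-fold in tumour cells, and it lies at chr7:29174187-29180673 (GRCm38). Psmd3, Psmd7, Psmd11 and Psmd13 had log2 genotype differences before injection of 0.35, 0.049, -0.23 and 0.029. In tumour cells the same genes had -0.026, -0.15, -0.36 and 0.092. None of these 4 passed 1.5-fold in either state as deposited, but Psmd3 was 1.5-fold or more higher before injection under 3 of 9 alternative settings.

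Of the other chaperones, Psmd5 had the same order of arrays as Psmd10 with smaller differences, and Psmd9 had another order. Psmd5, which holds ATPases before assembly, had a signal of 1111 in p65-/- tumour and 841 in p65-/- pre-injection cells, against 1421 in p65+/+ tumour and 1126 in p65+/+ pre-injection cells, and its log2 genotype differences were -0.42 before injection and -0.36 in tumour cells. Psmd9, another ATPase chaperone, had 424 in p65-/- tumour and 540.2 in p65-/- pre-injection cells, against 461 in p65+/+ tumour and 417 in p65+/+ pre-injection cells. Its probe sets disagreed, since a dimmer one had signals of 219.9 in p65-/- tumour and 166 in p65-/- pre-injection cells, against 201 in p65+/+ tumour and 218 in p65+/+ pre-injection cells and gave a log2 difference before injection of -0.40, against 0.37 for the main one.

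**Figure D4:**
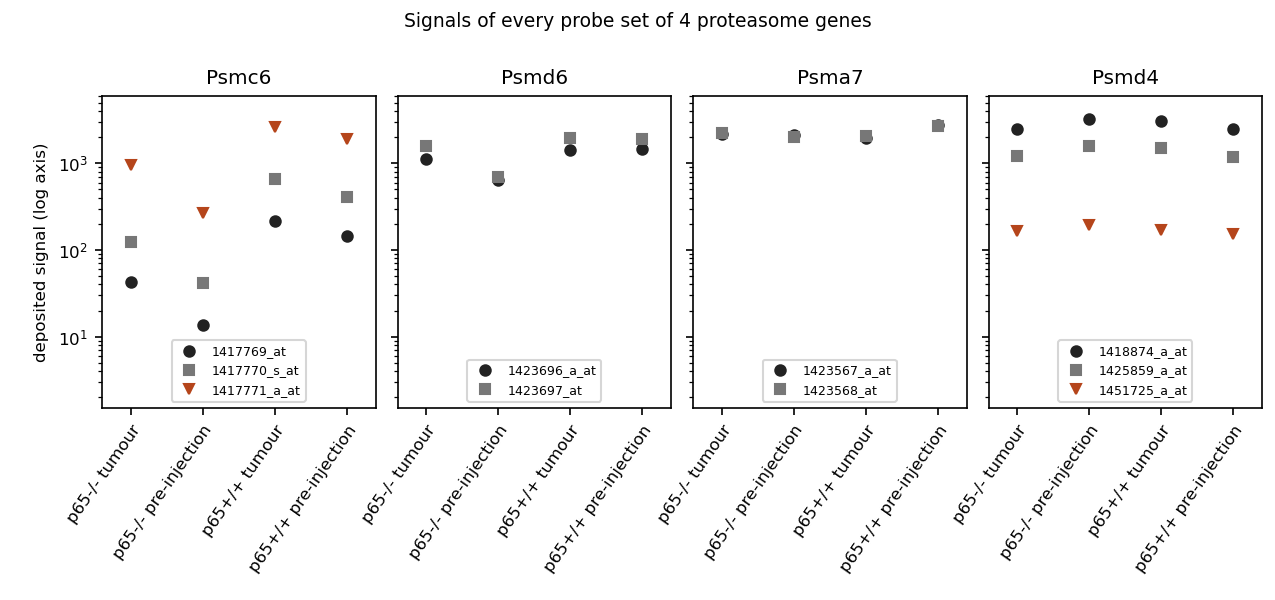
Signals (log axis) of every probe set of Psmc6, Psmd6, Psma7 and Psmd4 on the 4 arrays, with 1 symbol per probe set. The 3 Psmc6 probe sets are lower on the p65-/- arrays at different signals, the 2 Psmd6 probe sets are lowest on the p65-/- pre-injection array, the 2 Psma7 probe sets nearly coincide, and the 3 Psmd4 probe sets are highest on the p65-/- pre-injection array.

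Tumour passage was compared within each genotype. In p65-/- cells 6 of the 34 genes were 2-fold or more higher in tumour than in pre-injection cells (17.6%, against 13.9% of all 12444 genes), and 0 were 2-fold or more lower (1.5% of all genes). Among genes of the same signal range 23.5% were 2-fold or more higher, so this share was also near or under the background. The 6 were Psmc6 (3.53-fold), Psma4 (2.36-fold), Psmd6 (2.31-fold), Psmd1 (2.31-fold), Psmd14 (2.12-fold) and Psma3 (2.09-fold). Psmd12 was 1.91-fold higher. At 1.5-fold, 9 genes were higher (23.5% of all genes) and 0 were lower (4.79%), but 3 were lower after quantile normalization or scaling to the 75th percentile and 2 after cyclic loess. The median was 0.10, against 0.03 for all genes, and it was below 0 after quantile normalization, scaling to the 75th percentile or cyclic loess (-0.19 to -0.0737), where 1 gene was 2-fold or more higher. The lowest log2 differences were -0.38 for Psmd4 and -0.35 for Psmd9. The p65-/- pre-injection array enters both this comparison and the one between genotypes before injection, so genes low on that array appear in both.

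In p65+/+ cells the tumour and pre-injection values were close. Of the 34 genes 0 were 2-fold or more higher and 0 lower (0.991% and 0.777% of all 11706 genes), and 0 passed 1.5-fold in either direction (3.84% higher and 2.95% lower among all genes). The median log2 difference was 0.04 (-0.012 after quantile normalization) with 24 of 34 above 0 (70.6%, against 47.7% of all genes), and the values ran from -0.46 (Psma7) to 0.53 (Psma3). The alpha ring median was 0.30 and the beta ring median 0.08. The within-gene spread of this comparison was 0.19 over 5222 genes. The tumour changes of the genotypes, which share no array, had Pearson's r of 0.19 and Spearman's rho of 0.07 across the 34 genes, and 0.05 and -0.01 without Psmc6, against -0.05 and -0.02 across all 11321 genes. The sign was the same for 17 of 34 (50%), against 49.8% of all genes.

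The tumour change of p65-/- cells minus that of p65+/+ cells was 2-fold or more higher for 5 of 34 genes and 2-fold or more lower for 0, against 16% and 2.66% of all 11321 genes. The 5 were Psma4 (1.38 on the log2 scale), Psmc6 (1.34), Psmd6 (1.18), Psmd1 (1.09) and Psmd14 (1.07). Psmc6 was at 0.38 with the mean of all its probe sets, where the p65-/- pre-injection level was set to the floor, and at 1.10 with no floor applied to that mean. At 1.5-fold, 7 were higher and 2 lower, and the 2 lower were Psmd4 (1.61-fold) and Psmb5 (1.58-fold), against 26.2% higher and 7.71% lower of all genes. The number lower was 4 after quantile normalization or cyclic loess, 7 after scaling to the 75th percentile and 1 in the authors' deposited table. The median was 0.05 for the 34 genes and 0.09 for all genes, and that of the 34 was below 0 under each of the 4 scalings (-0.24 to -0.041), where 2 or 3 genes were 2-fold or more higher. Core and regulatory particles had medians of 0.02 and 0.06, so the particles as wholes had nearly the same value.

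A property the choice of genes did not use was the genomic span of the gene. The genotype difference before injection was lower for genes of longer span, with a Spearman's rho of -0.38 across the 34 genes and of -0.23 across 12532 genes. For the p65-/- tumour change the values were 0.38 across the 34 genes and 0.25 across 12381 genes. These are descriptions across genes that share the arrays.

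Partners of the proteasome were counted by list, beside the 18.1% of all genes that were 2-fold or more lower in p65-/- cells before injection. These lists, and those of the next paragraph, were counted on the deposited signals alone and not under the 4 scalings. Under 3 of those scalings, the count of the 34 proteasome genes that were 2-fold or more lower fell from 7 to 3. Of 4 activators and the inhibitor, 1 was 2-fold or more lower in p65-/- cells before injection, Psme4, which caps the core particle and takes part in histone degradation. Its signal was 927 in p65-/- tumour and 299 in p65-/- pre-injection cells, against 1170.0 in p65+/+ tumour and 1257 in p65+/+ pre-injection cells, 4.21-fold below p65+/+ cells, and the p65-/- tumour cells were 3.1-fold above the pre-injection cells. Of 5 other assembly chaperones, 1 was 2-fold lower before injection, Pomp, the maturation factor of the core particle, with a signal of 1802 in p65-/- tumour and 1249.7 in p65-/- pre-injection cells, against 2409.6 in p65+/+ tumour and 2732 in p65+/+ pre-injection cells, 2.19-fold lower in p65-/- cells before injection. Among 6 genes listed as proteasome-associated, 2 were 2-fold or more lower before injection. They were Ecpas (2.91-fold), an adaptor and scaffold, and Usp14 (2.11-fold), a deubiquitinase of the proteasome. Uchl5, the other deubiquitinase of the regulatory particle, was 1.85-fold lower, Sem1 1.6-fold and Txnl1 1.51-fold, so 5 of the 6 passed 1.5-fold, which 26.5% of all genes did in that direction. In p65-/- cells Ecpas, Usp14 and Uchl5 were higher in tumour than pre-injection cells, by 2.63-fold, 2.34-fold and 2.21-fold. None of these 6 passed 1.5-fold between the genotypes in tumour cells.

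Ubiquitin supply was represented by 1 of 6 listed genes, Uba6, a ubiquitin-activating enzyme. It was at least 5.01-fold lower in p65-/- cells before injection, at least 2.94-fold higher in p65-/- tumour than pre-injection cells, and 1.72-fold lower in p65-/- than p65+/+ tumour cells. Among 8 shuttle factors and VCP cofactors, 1 was 2-fold or more lower before injection (Ubqln2, 2.1-fold), against 18.1% of all genes, and 4 at 1.5-fold, against 26.5%, with Ubqln1 (1.93-fold), Ufd1 (1.83-fold) and Rad23b (1.52-fold). At 1.5-fold, which 7.49% of all genes passed in that direction, Sqstm1 and Nploc4 were higher, by 1.84-fold and 1.61-fold. Nfe2l1, the transcription factor that drives proteasome genes when proteasomes are impaired, had a signal of 436 in p65-/- tumour and 333 in p65-/- pre-injection cells, against 528 in p65+/+ tumour and 412 in p65+/+ pre-injection cells, and its genotype difference was 1.24-fold lower before injection. Of the 6 genes of its list, Nfe2l2 was 2.23-fold lower before injection and Ngly1, which removes glycans from Nfe2l1, at least 4.04-fold lower. In tumour cells Maff, a small Maf partner, was 2.86-fold lower, and Ngly1, Nfe2l2 and Mafg passed 1.5-fold.

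The immunoproteasome genes, which interferon induces, were dim. Psmb8 had signals of 53.4 to 61.9 and Psmb9 of 65.2 to 77.4, under the floor on every array. Psmb10 had a signal of 257 in p65-/- tumour and 325 in p65-/- pre-injection cells, against 251 in p65+/+ tumour and 304 in p65+/+ pre-injection cells, within 1.5-fold in each comparison.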

How the data were processed

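Per the labels' protocols, total RNA was extracted with Trizol and biotin-labelled cRNA was made from 6 ug for Affymetrix arrays, 1 per group. The authors deposited a series matrix of linear signal intensity per probe set, for which the sources used here name no summary or scaling method. The authors also deposited a score table, named as ratios, made in a way that no header or label states. Its values matched the log2 level of one array divided by that of the other, with a sign for direction, within 0.02 for 70.3% to 89.1% of probe sets with signals of at least 300, and was used as an alternative only. Scanner intensity per cell, deposited per array, had medians of 79 in p65-/- tumour and 78 in p65-/- pre-injection cells, against 90.0 in p65+/+ tumour and 91 in p65+/+ pre-injection cells, and served to compare arrays. One array per group limits the precision.

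Signals under 1 were set to 1 and log2 was taken, with no further scaling. A gene took its brightest single-gene probe set by the 2016 platform annotation, using those ending in _x_at or _s_at only where it had no other. An array's median signal was its floor; a gene was compared where 1 of the 2 arrays reached it, and lower values were set to it, giving "at least" folds. Genes at 2-fold or 1.5-fold were counted beside the same count over all genes. Of 111 list entries, 11 had no probe set of their own. The members, the lists and the naming rule, under which every member was named and other genes only past 1.5-fold or, in lists with none, the 2 brightest, were chosen with earlier results of these data known; the genes shown by sequence follow the extremes of the comparisons and the catalytic subunits. Nfe2l1, Psmb8, Csf1r, Krt18 and the markers given as under the floor on all 4 arrays lie outside that rule and were named after their values were seen. Positions came from the RefSeq table of GRCm38. Differences were recomputed by quantile normalization, scaling to the 75th percentile or the median, cyclic loess, a floor at the 70th percentile, no floor, the mean of all probe sets, the brightest probe set of any suffix and the deposited table. The calculation was tested on simulated data. Python 3.11.15, numpy 2.4.6, pandas 2.3.3 and limma 3.58.1 were used.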

Additional observations from a re-analysis of the deposited data

Results flagged for a closer look

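With 1 array per group, the results listed here are those in which the tumour change had opposite signs in the 2 genotypes and passed 1.5-fold in at least 1 of them. The difference between the genotypes was not tested for any of them. Psma1, an alpha ring subunit, had a log2 tumour change of 0.59 in p65-/- cells and -0.12 in p65+/+ cells, but its p65-/- value was 0.27 to 0.51 under the 4 scalings, short of 1.5-fold. Psma4, also of the alpha ring, had 1.24 in p65-/- cells and -0.14 in p65+/+ cells. Psmd12, of the lid, had 0.93 in p65-/- cells and -0.0051 in p65+/+ cells, where the second value is close to 0. Outside the genes chosen by symbol, Psme4 had 1.63 in p65-/- and -0.10 in p65+/+ cells. In the same order, Sem1 had 0.62 and -0.081, and Ubqln2 0.62 and -0.34. Sem1 (1.53-fold) and Ubqln2 (1.54-fold) also passed 1.5-fold in p65-/- cells by a small margin, though a wider one than that of Psma1 (1.503-fold). No values under the 4 scalings are given for the genes outside that choice by symbol. Ngly1 had at least 1.21 in p65-/- cells, against -0.015 in p65+/+ cells. The opposite way, Sqstm1, an autophagy receptor, had -0.69 in p65-/- and 0.034 in p65+/+ cells, and Maff had -0.63 in p65-/- and 0.87 in p65+/+ cells. The p65-/- pre-injection array, which stood apart from the other arrays, enters each p65-/- value, and its part in them was not tested.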

How the results depend on the processing

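No paired analysis was possible because each group was 1 array, and for the same reason no array could be left out of a group. Among the alternatives named in the processing notes, 110 of the main counts and medians kept their value within the limits set, 14 moved and 14 changed sign. A median was counted as kept if its sign held and it shifted by less than the within-gene spread of probe sets (0.19 to 0.48). A count was kept if it was equal or within 1.5-fold. The floor settings could not change the value of any of the 34 genes, so part of the 110 was settled in advance. For the p65-/- tumour change, the median of the 34 genes was -0.0737 after quantile normalization, -0.19 after scaling to the 75th percentile and -0.14 after cyclic loess, and 1 gene was 2-fold higher under each of the 3. For the p65+/+ tumour change the median was -0.012 after quantile normalization. For the genotype difference before injection, the median was 0.073 after quantile normalization, 0.11 at the 75th percentile and 0.044 with loess. The genes 2-fold lower were then 3 under each of these 3, 4 after scaling to the median, 4 in the authors' deposited table and 1 when p65-/- tumour cells were set against p65+/+ pre-injection cells; 1 gene was 2-fold higher at the 75th percentile. In that last contrast, which mixes genotype and tumour state, the alpha ring median was 0.018, and Psma3 (0.18), Psma4 (0.20) and Psmd1 (0.13) changed sign. In tumour cells the median was 0.025 after quantile normalization. For the difference of the tumour changes, the median was -0.18 after quantile normalization, -0.24 at the 75th percentile, -0.041 after scaling to the median, -0.19 with loess, -0.010 with the mean of all probe sets and -0.00267785 in the deposited table; the genes 2-fold higher were 2, 2, 3 and 2 under the 4 scalings. Quantile normalization and the 75th percentile moved the median of all genes before injection to 0.24 and 0.35, and relative to it the 34 genes stood at -0.16 and -0.24. The cause of these shifts was not tested. Psmc6, Psmd10 and Psmd6 were 2-fold or more lower in p65-/- cells before injection under each of the 9 alternatives that kept that array. The floor alternatives and the brightest probe set of any suffix could not change these 3 genes. Signals near the floor limit the dim probe sets of Psmc6 and of Psma8 and Psmb11, which are given as signals.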

Other observations

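The 7 genes that were 2-fold or more lower in p65-/- cells before injection, of which Psmc6, Psmd10 and Psmd6 stayed so after quantile normalization, scaling to the 75th percentile or cyclic loess, were 1 alpha subunit (Psma4), 1 ATPase (Psmc6), 1 other base subunit (Psmd1), 3 lid subunits (Psmd6, Psmd12 and Psmd14) and 1 chaperone (Psmd10). Core and regulatory particles had medians of -0.21 and -0.23 in that comparison.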
